A study of Mus musculus with 115 samples.

Results

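RNA levels of 47 genes of mitosis and the kinetochore were examined across prostates of TRAMP mice. The members were chosen by function from a table of 45699 genes: regulators of the passage from G2 to M phase, spindle and kinetochore proteins, and condensin subunits, all on autosomes. All 47 were found by symbol, on 15 chromosomes, and none was listed at 0 in any library.

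The study crossed TRAMP mice, in which a prostate-specific probasin promoter drives the SV40 T antigens, to the wild-derived strain WSB/EiJ, and sequenced bulk RNA from the prostate of transgene-positive F2 males. The labels call the tissue prostate tumor, while the study weighed the organ and did not check each one for tumor by pathology. The libraries, each labelled with a different mouse, form 1 group under the labels and are described below as the 36 and the 79 into which their expression divides. There was no untreated or transgene-negative group, and the genotype, age and tumor traits of each mouse were not used here. Where a prostate was small, the study took RNA from the ventral lobe, so libraries can differ in the tissue they hold.

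Cells that enter mitosis condense their chromosomes, build a spindle, attach each chromosome to it through kinetochores, and separate the sister chromatids once a checkpoint has been satisfied. The genes for this machinery are transcribed mainly in G2 and M phase, so their RNA in bulk tissue is commonly read as a measure of dividing cells. Many are repressed in resting cells by the DREAM complex, which needs proteins of the Rb family, and activated later by B-Myb and FoxM1 through a short promoter element, the cell cycle homology region. The T antigen of SV40 binds Rb and p53.

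Promoter sequence was the first property compared that had no part in the choice of genes. In RefSeq, GRCm38.p6, windows of 300 bases (250 before and 50 after the annotated start) were held for 37 of the 47 members and for 27025 genes in all. The cell cycle homology region was searched as TTTGAA or TTCGAA, and the CCAAT box, the site of the factor NF-Y, as CCAAT, both on either strand. The windows printed here end before the annotated gene in both RefSeq and GENCODE M21. They belong to Cdk1, Ccnb2, Cdc20, Ncapg, Top2a and Mki67, chosen to show 1 gene each of the kinase, cyclin, exit, condensin, topoisomerase and antigen roles. Capitals mark the matches to either word, and each sequence is written 5′ to 3′ on the strand of its gene.
Cdk1: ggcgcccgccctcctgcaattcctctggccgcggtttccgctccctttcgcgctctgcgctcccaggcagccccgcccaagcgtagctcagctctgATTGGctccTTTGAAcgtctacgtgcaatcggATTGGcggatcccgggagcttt
Ccnb2: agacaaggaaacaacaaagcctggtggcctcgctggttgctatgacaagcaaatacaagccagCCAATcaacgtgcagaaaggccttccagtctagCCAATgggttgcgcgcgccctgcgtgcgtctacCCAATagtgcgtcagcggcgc
Cdc20: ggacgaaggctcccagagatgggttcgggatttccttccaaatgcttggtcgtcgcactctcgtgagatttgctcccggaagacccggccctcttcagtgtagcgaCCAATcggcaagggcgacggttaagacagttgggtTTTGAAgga
Ncapg: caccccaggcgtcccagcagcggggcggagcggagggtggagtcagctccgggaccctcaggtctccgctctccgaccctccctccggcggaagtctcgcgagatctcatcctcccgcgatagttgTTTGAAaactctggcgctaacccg
Top2a: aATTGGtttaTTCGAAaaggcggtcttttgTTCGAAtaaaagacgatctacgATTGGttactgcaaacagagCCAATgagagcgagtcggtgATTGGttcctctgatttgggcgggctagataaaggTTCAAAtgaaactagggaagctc
Mki67: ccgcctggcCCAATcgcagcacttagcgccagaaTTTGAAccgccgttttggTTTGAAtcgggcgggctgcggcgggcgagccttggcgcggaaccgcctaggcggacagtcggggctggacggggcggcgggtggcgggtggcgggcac

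The Cdk1 window lies at chr10:69352939-69353088 (minus strand), that of Ccnb2 at chr9:70421555-70421704 (minus), that of Cdc20 at chr4:118437353-118437502 (minus), that of Ncapg at chr5:45669769-45669918 (plus), that of Top2a at chr11:99024190-99024339 (minus) and that of Mki67 at chr7:135716380-135716529 (minus). A homology region word was present in 26 of the 37 members' full windows (70.3%), against 21.7% of all genes with a window and 16.4% of the 10239 expressed ones. Within 50 bases of the start the shares were 62.2% of members, 6.12% of all genes and 4.37% of expressed genes. The CCAAT word was held by 26 of 37 members (70.3%), 41.1% of all genes and 42.8% of expressed genes, and 23 members held both. In the Ccnb2 window 3 CCAAT words stood at -87, -54 and -21 bases from the start, while its homology region words lay at -167 and 4. Words for E2F, searched as TTTCCCGC, TTTCGCGC, TTTGCCGC or TTTGGCGC, were found in 3 members (8.11%), against 2.61% of all genes and 4.6% of expressed genes. The members without a homology region word were Birc5, Ccnb1, Cenpe, Cenpk, Mad2l1, Melk, Mybl2, Ncaph, Nuf2, Nusap1 and Pttg1. A match is a description of letters in this window and does not show binding, and no match says nothing about the factor.

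**Figure D1:**
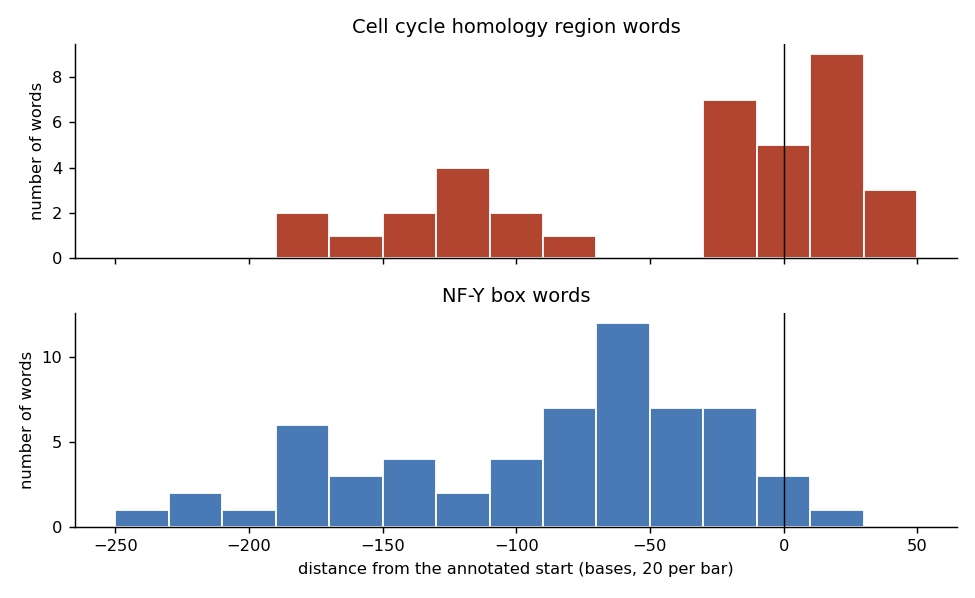
Number of words by distance in bases from the annotated start, in bars of 20 bases, over the 37 members with a RefSeq promoter window. Words seen from both starts of a gene are counted once, at the nearer start. The upper panel counts 36 cell cycle homology region words, of which 24 lay within 50 bases of the start; the lower panel counts the words of the NF-Y box, most of them upstream of the start.

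Before the levels are described, 6 libraries have to be set apart. W5000 to W5005 carry the same labels as the rest, but hold RNA of the spermatid genes Prm1, Prm2, Tnp1 and Tnp2, summed to between 20.4 and 250.1 TPM (a length-normalized share of each library's transcripts, scaled to a constant total). All other libraries reached at most 1.18 TPM for that sum. These 6 were also among the 7 libraries with the lowest levels of the mitosis genes, with a geometric mean over the members of 0.367 to 0.566 TPM. The lowest library was one of these 6 for 31 members and another for 16. Relations, ratios and ranges on which the 6 bear most are also given without them, and the part of these transcripts in any result was not tested.

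The libraries themselves fell into separate parts. The first principal component of log2(TPM + 1) over the 14623 genes with a mean of 1 TPM or more carried 48.7% of the variance, and a mixture of 2 normal distributions split it into 36 and 79 libraries (fall in BIC 196, Ashman D 6.10). These parts come from the data and are not groups of the study, so they were not compared by a test, and each relation below was computed within 1 of them. W5000 to W5005 were all among the 79.

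The mitosis genes as a set varied far more than most genes. Their geometric mean ran from 0.367 TPM in W5000 through a median of 4.07 TPM to 50.9 TPM, a 139-fold range (0.440 TPM, 4.96 TPM and 116-fold without W5000 to W5005). The summed TPM of the 47 members ran from 26.6 to 3042, with a median of 260.1. The 36 libraries lay between 13.96 and 50.9 TPM of geometric mean and the 79 between 0.367 and 11.7 TPM, so the ranges did not touch. They overlapped once the parts were drawn without mitosis and replication genes, which gave 38 libraries from 2.81 TPM upwards. These were the 36 with W4548 (2.81 TPM) and W1154 (3.33 TPM) added. Fewer dividing cells and less RNA of these genes per cell cannot be told apart in bulk tissue. For single members the ratio of the 90th to the 10th percentile of TPM had a median of 42.7, from 11.1 for Pttg1 to 97.9 for Cenpf, and 12.6% of all genes tested reached 42.7. Without W5000 to W5005 the median ratio was 31.7, reached by 14.5% of genes, and Pttg1 and Cenpf still held the lowest and highest ratios. The median of the members' median levels was 4.26 TPM, against 5.59 TPM over all genes tested. In at least 50% of libraries, 46 members reached 1 TPM, beside 86.8% of genes tested, and 7 reached 10 TPM, beside 33%. Members at 1 TPM or more numbered 7 in the lowest library and all 47 in each of the 36.

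**Figure D2:**
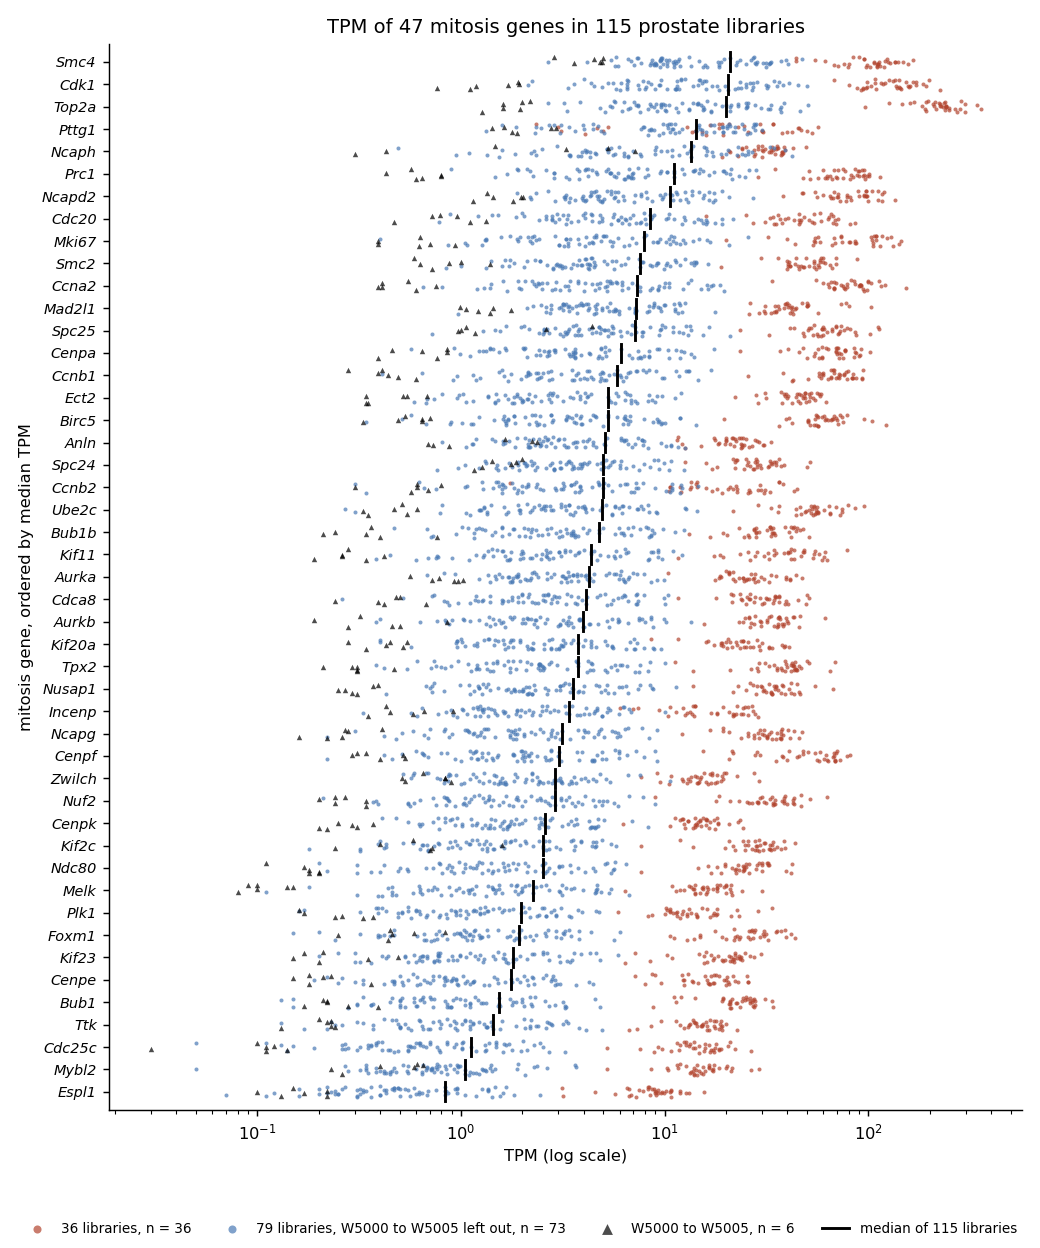
TPM on a log scale of each of the 47 members in the 36 and 79 libraries, 1 point per library, ordered by median TPM (black bars). Red points are the 36 libraries, blue points the 79 without W5000 to W5005, and black triangles those 6; for most genes the red points lie apart to the right, while Pttg1, Ncaph and Ccnb2 mix.

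Mki67, the nuclear antigen Ki-67 that coats mitotic chromosomes and is used to count cycling cells, was listed at 0.39 TPM in its lowest library, 7.89 TPM in the median and 144 TPM in the highest. It lay at 20 TPM or more in the 36 libraries and at 25.7 TPM or less in the 79, so 1 of the 36 fell within the range of the 79. Top2a, the topoisomerase that disentangles sister chromatids, ran from 1.27 through 20.1 to 357 TPM, the highest value of any member. Its level exceeded that of Mki67 in every library, with a median Mki67/Top2a ratio of 0.367.

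Foxm1 and Mybl2 encode the activators of the late cell cycle genes, FoxM1 and B-Myb. Foxm1 ran from 0.15 through 1.93 to 43.6 TPM and Mybl2 from 0.05 through 1.05 to 29.1 TPM. Both medians lay under the median of 4.26 TPM over members, and for neither did the range over the 36 libraries (from 10.7 and 5.23 TPM upwards) reach down to that over the 79. The same held for 34 members in all, beside 2.09% of genes tested. With the parts drawn without mitosis and replication genes, W4548 and W1154 joined the 36, and it held for 0 members. These 2 libraries had geometric means of 2.81 and 3.33 TPM, and the share of all genes was not computed for those parts. Mybl2 was also the member, after Pttg1 and Ncaph, least closely tied to the rest over the 79, with a median r with other members of 0.82.

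The cyclins and their kinase followed. Cdk1, the kinase that drives entry into mitosis, had a lowest level of 0.76, a median of 20.3 and a highest level of 226 TPM, and its lowest level was 2.12 TPM without W5000 to W5005. Its cyclin partner Ccnb1 ran from 0.28 through 5.85 to 93.7 TPM. Cdk1 exceeded Ccnb1 in every library, by a ratio of 1.35 to 6.32. Reads of Ccnb1 could be shared with the processed pseudogenes Gm12856 and Ccnb1-ps, which reached at most 6.79 TPM, so its level is less certain. Ccna2, the cyclin of S and G2 phase, had a median of 7.29 TPM. Cdc25c, the phosphatase that activates Cdk1, held the lowest value of all members, 0.03 TPM in W5000, and ran through a median of 1.12 to 26.5 TPM. Ccnb2, the other B-type cyclin, stood out in the 36 libraries and is described below.

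Among mitotic kinases, Aurka, which works at the spindle poles, ran from 0.56 through 4.26 to 46.9 TPM, and Plk1, which acts from the centrosome to cytokinesis, from 0.16 through 1.96 to 33.4 TPM. Melk, a kinase of the same expression phase, had a median of 2.26 TPM. In these 3 genes all of the 36 libraries lay above all of the 79, except for 1 library of each in Melk. No such gap was left once W4548 and W1154 joined the 36, in the parts drawn without mitosis and replication genes.

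The chromosomal passenger complex joins the kinase Aurkb to survivin (Birc5), borealin (Cdca8) and Incenp, and corrects wrong attachments at the centromere. Aurkb was listed between 0.19 and 61.4 TPM with a median of 3.96 TPM, and Birc5 between 0.33 and 122 TPM with a median of 5.26 TPM. The ratio of Cdca8 to Aurkb had a median of 0.943 and a range of 0.565 to 1.8, over libraries whose Aurkb differed 323-fold. Without W5000 to W5005 the ratio began at 0.598 and Aurkb differed 162-fold. Around the mean of the other members Cdca8 had an SD of 0.22 on the log2 scale, against a median SD of 0.40.

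The spindle checkpoint holds anaphase back until every kinetochore is attached. Bub1, its kinase at the kinetochore, ran from 0.13 through 1.53 to 34.2 TPM, and Ttk, the kinase that starts the signal, from 0.13 through 1.43 to 22.6 TPM. Both were among the 5 members of lowest median. Mad2l1, which carries the signal, was the highest of this role, from 0.97 through 7.21 to 102.5 TPM. Bub1b had a median of 4.75 TPM and exceeded Bub1 in all libraries except W5002. Zwilch, part of the complex that brings dynein to kinetochores, had a median of 2.90 TPM and its ranges in the 36 and the 79 overlapped by 4 and 1 libraries.

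At the kinetochore, Ndc80 and Nuf2 form the arm that grips microtubules and Spc24 and Spc25 its base. Ndc80 ran from 0.11 through 2.51 to 42.1 TPM. Nuf2 tracked it with a ratio to Ndc80 of 0.682 to 2.42, median 1.22. Spc25 exceeded Ndc80 in every library, with a ratio of 1.64 to 21.95 (W5003), or to 9.13 without W5000 to W5005, although the subunits act together in the protein complex. Cenpa, the histone variant that marks the centromere, was listed from 0.39 through 6.11 to 102.01 TPM. Cenpe, the kinesin that moves chromosomes to the plate, had a median of 1.75 TPM, Cenpk 2.58 TPM and Cenpf 3.04 TPM, and Cenpf had the widest ratio of the 90th to the 10th percentile of any member.

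The 9 members that act in the spindle and in cytokinesis were Kif11, Kif20a, Kif23, Kif2c, Tpx2, Prc1, Nusap1, Anln and Ect2. Their median levels lay between 1.79 TPM for the midzone kinesin Kif23 and 11.1 TPM for Prc1, which bundles the microtubules of the midzone. Anln, the scaffold of the contractile ring, had the narrowest spread among them, with a 90th to 10th percentile ratio of 14.7.

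Exit from mitosis is set off by Cdc20, which activates the anaphase-promoting complex, and by its ubiquitin-conjugating enzyme Ube2c. Cdc20 ran from 0.47 through 8.42 to 86.2 TPM and Ube2c from 0.27 through 4.90 to 94.7 TPM. Ube2c shares 592 exon bases with Tnnc2 on the other strand, and since no source states that strand was kept, reads of the 2 genes cannot be told apart there. Espl1, the separase that cuts cohesin, had the lowest median of all members, 0.83 TPM, from 0.07 to 15.6 TPM. Securin (Pttg1), which holds separase inactive, exceeded Espl1 in all libraries except 8 and had a pattern of its own.

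Condensin shapes the mitotic chromosome. Its core subunit Smc4 had the highest median of all members, from 2.66 through 20.98 to 166 TPM, and its partner Smc2 ran from 0.59 through 7.53 to 88.1 TPM. Smc4 exceeded Smc2 in every library, by a ratio of 1.35 to 6.85. Of the condensin I subunits, Ncapg ran from 0.16 through 3.12 to 46.99 TPM and Ncapd2 exceeded it everywhere, by a ratio of 1.596 to 9.14. Ncapg shares 944 exon bases with Lcorl on the other strand. The third condensin I subunit, Ncaph, departed from both.

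Overlapping annotation touched 15 members in all. The largest shared stretch was 1271 exon bases of Kif20a with Cdc23, followed by those of Ncapg and of Prc1 with Rccd1 (911 bases).

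Whether each level separated the libraries was asked with the same mixture rule (a fall in BIC over 10, Ashman D over 2 and at least 6 libraries in each part). It did so for 46 of 47 members, and for 33% of all genes tested. Of the other mitosis genes listed with them, 73 of 90 separated, and of 28 genes of DNA replication 18 did. For 44 of the 46 members the upper part held 31 to 38 libraries, and for 21 of them it held 35. The same libraries recurred: 24 were in the upper part of every separated member, 24 in that of none, and 34 were in that of 40 or more members, all of them within the 36. Only 2 libraries lay between 6 and 39 members. For 34 members the lowest of the 36 libraries lay above the highest of the 79. With the parts of 38 libraries (the 36 with W4548 and W1154) and 77, drawn without mitosis and replication genes, 0 members met this. The share of all genes was not computed for those parts. Over all genes tested 2.09% met it with the 36 and 79, but these parts were drawn from the same values, so the count is a description. In the remaining 13 members the ranges overlapped, in 7 of them by no more than 2 of the 36 libraries. Leaving out W5000 to W5005, 45 members separated, against 33.3% of genes.

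Chga (chromogranin A) marks neuroendocrine cells and Tgm4 is a transglutaminase secreted by luminal cells of the prostate. Chga was listed between 0.06 and 479 TPM with a median of 0.57 TPM, and its own upper part held 37 libraries. Of the 34 libraries high for 40 or more mitosis genes, 31 were in it (91.2% of the 34 and 83.8% of the 37). Tgm4 was above 0 in every library, from 0.64 through 2963 to 16895 TPM, and its lower part held 52 libraries. The 34 shared 33 libraries with it (97.1% of the 34 and 63.5% of the 52). Of the 79 libraries, 17 also fell in the lower part of Tgm4.

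Among the 36, exceptions to these overlaps were few and can be named. W1118, W1050 and W1915 were among the 36 with a Chga of 0.15, 1.15 and 1.23 TPM, in its lower part. Their Mki67 levels of 57.9, 54.7 and 74.1 TPM were nevertheless far above the 25.7 TPM that bounded the 79. In the other direction, 4 of the 79 libraries were in the upper part of Chga, at 1.83 TPM or more, and 17 in the lower part of Tgm4. W4517 alone of the 36 was in the upper part of Tgm4, at 2469 TPM, with a geometric mean of the members of 22.1 TPM. In the 79, the highest geometric mean was that of W4181, 11.7 TPM, with Chga at 0.48 and Tgm4 at 496 TPM.

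**Figure D3:**
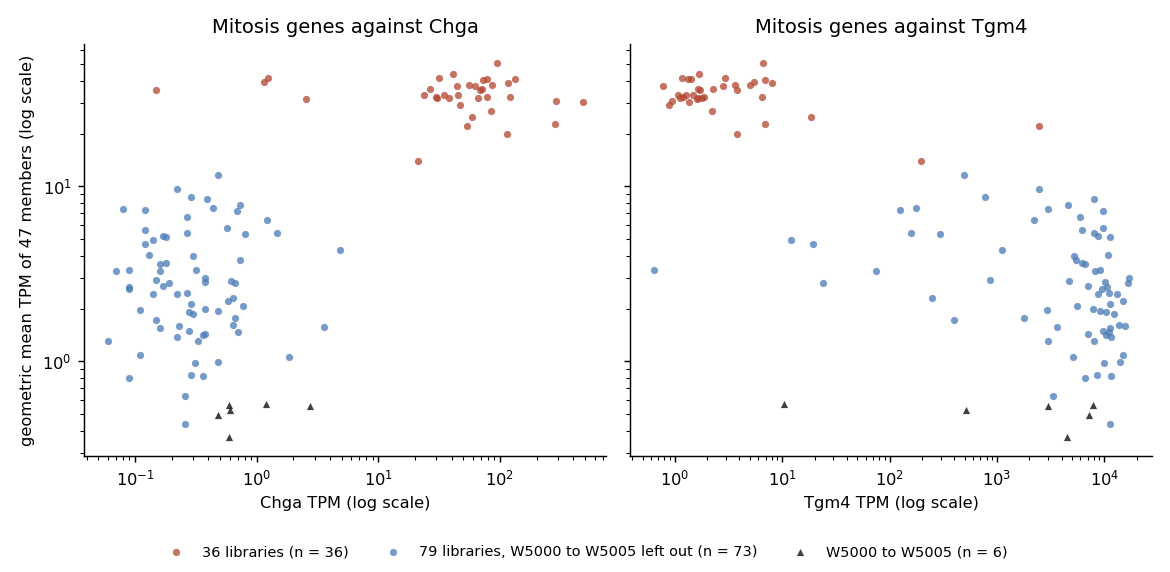
Geometric mean TPM of the 47 members in each library against Chga TPM (left) and Tgm4 TPM (right), both axes on a log scale. The 36 libraries (red) lie at 13.96 TPM or more and the 79 (blue, with W5000 to W5005 as black triangles) at 11.7 TPM or less; 3 red points sit at a Chga of 1.23 TPM or less and 1 at a Tgm4 of 2469 TPM.

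Other cell types were followed by the summed levels of their marker lists. Summed TPM of 10 neuroendocrine genes lay between 51.4 and 795 in the 36 libraries and between 1.30 and 48.6 in the 79. That of 4 basal cell genes lay between 0.04 and 18.4 in the 36 and between 5.71 and 186 in the 79. For 10 luminal genes the sums were 49.7 to 2742 and 337 to 153057, for 6 seminal vesicle genes 1.48 to 242.2 and 1.90 to 170786, and for 8 stromal genes 12.4 to 1603 and 190 to 5542. Those of 8 leukocyte genes (14.8 to 556 and 20.6 to 1446) and of 4 endothelial genes (2.04 to 60.2 and 4.64 to 76.9) overlapped widely. Without W5000 to W5005 the sums in the 79 ended at 44742 for the luminal and 123 for the basal genes. Those of the leukocyte genes then began at 67.1, and the other ends stayed as they were. No gene of these lists was at 0 in all libraries of a part, and their share in the separation of the mitosis genes was not tested.

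Within each part, the levels of the mitosis genes varied together. Over the 79 libraries the median Pearson r of log2(TPM + 1) among the 1081 pairs of members was 0.95, against 0.42 over all pairs of the genes tested. Over the 36 it was 0.66, against 0.14. Pairs of genes are not independent, as they share libraries, and TPM also ties genes together, since the 20 genes of largest share took 48.9% to 81.8% of a library. With TPM rescaled without those 20 genes, the member pairs gave 0.93 over the 79 and 0.70 over the 36, while all pairs fell to 0.14 and 0.08. Leaving W5000 to W5005 out gave 0.95 over 73 libraries.

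Pttg1 broke this pattern most. It ran from 1.32 through 14.2 to 56.8 TPM, and its values left a gap between 5.29 and 7.67 TPM, with 32 libraries (27.8%) below and 83 above. Both parts held low libraries, 7 of the 36 and 25 of the 79. In the 36, those 7 lay at 2.33 to 5.29 TPM and the other 29 at 12.8 to 56.8 TPM, although the remaining mitosis genes were high in all of them. All 6 of W5000 to W5005 were below the gap, and without them 26 libraries (23.9% of the rest) were. The SD of its log2 difference from the mean of the other members was 1.78, while 45 of the 47 members stayed under 0.75. Since Pttg1 separated within the 79 libraries, its relation to the other members there is given on each side of the gap. Its r with the mean of the others was 0.40 over the 54 above and 0.74 over the 25 below (0.76 over 19 without W5000 to W5005). Over the 36, where the mixture rule did not separate its level, r across both sides of the gap was 0.08. On each side of the gap it was not computed there.

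Ncaph, the kleisin subunit of condensin I, was the next to depart, with an SD of 1.05. It ran from 0.30 through 13.5 to 49.6 TPM and its upper part held 47 libraries, 12 of them among the 79. The ratio of Ncaph to Ncapg ran from 0.662 to 20.6 in W5000, and that of Ncapd2 to Ncapg from 1.596 to 9.14. Without W5000 to W5005 the upper ends were 15.3 and 8.59, and the SD of Ncaph was 0.97. Among W5000 to W5005 alone Ncaph ran from 0.30 TPM in W5004 to 7.12 TPM in W5005.

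Ccnb2 was the only member whose level did not separate the libraries. It ran from 0.30 through 4.95 to 44.5 TPM. Over the 79 libraries it followed the other members closely, with a median r of 0.96 that 12 members exceeded, and over the 36 hardly at all, with a median r of 0.22. There, 12 of the 36 values fell within the range of the 79. W1702 held 1.74 TPM of Ccnb2 beside 65.3 TPM of Ccnb1, a ratio of 37.5 against a median of 1.36.

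**Figure D4:**
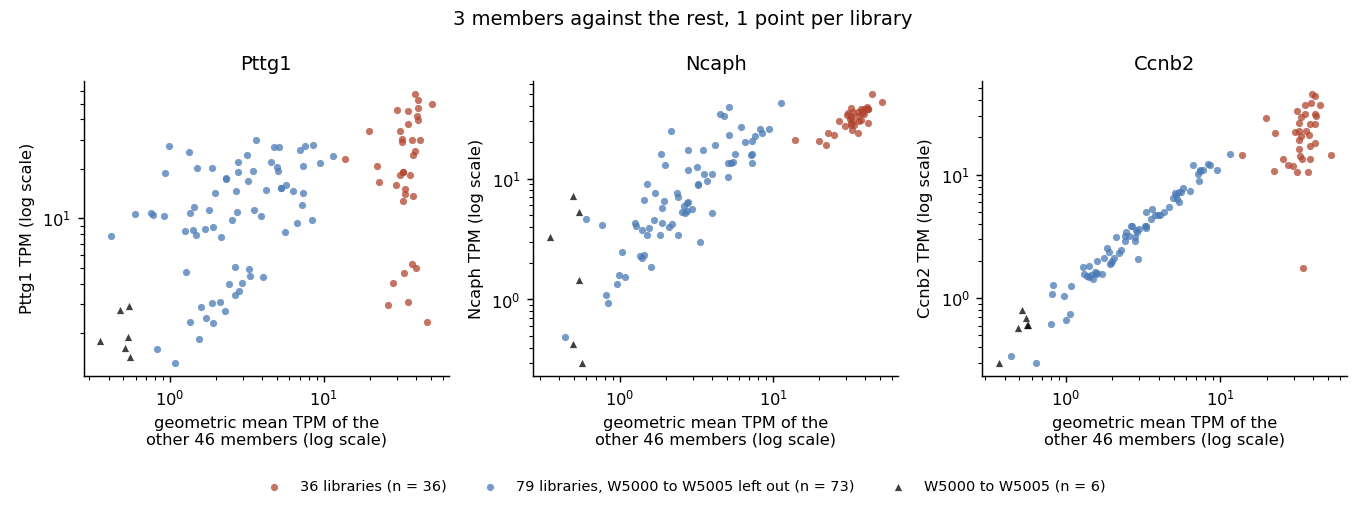
TPM of Pttg1, Ncaph and Ccnb2 in each library against the geometric mean TPM of the other 46 members, on log scales. Pttg1 lies in an upper and a lower band in both the 36 (red) and the 79 libraries (blue, with W5000 to W5005 as black triangles), Ncaph scatters in the 79, and Ccnb2 is tight in the 79 and spread in the 36, with W1702 at 1.74 TPM.

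Relations with Chga and Tgm4 inside the parts were tested for every gene with two-sided permutation tests of r (100000 permutations), with p-values adjusted after Benjamini and Hochberg over 14622 genes. Over the 36 libraries, r of the members with Chga ran from -0.64 to 0.38 with a median of -0.14, the same as the median over all genes, -0.14. Mad2l1 (r = -0.64, adjusted p = 0.0015) and Plk1 (r = -0.49, adjusted p = 0.0114, both by permutation) were called negative, beside 23.9% of all genes, and 0 members positive, beside 9.77%. These 2 calls did not hold in ranks (rho = -0.15 and -0.10) or without W1118 and W1050, the 2 libraries farthest from the median of Chga, where r was -0.41 and -0.32 and neither passed. At the other end stood 3 kinetochore and condensin genes, Spc25 (r = 0.38, adjusted p = 0.0649 by permutation), Spc24 (0.27) and Ncapd2 (0.24), none past the threshold. Drawing the parts without mitosis and replication genes moved W4548 and W1154 (geometric means of 2.81 and 3.33 TPM, Chga at 0.67 and 0.09 TPM) to the 36, and 27 members were then positive, with a median r of 0.41, beside 18.9% of genes positive and 19.9% negative. The count of members related to Chga thus differed with 2 libraries.

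In the 79 libraries Chga separated into 72 low libraries (0.06 to 0.81 TPM) and 7 higher ones (1.19 to 4.84 TPM). Over the 72, r ran from -0.15 for Mad2l1, -0.13 for Cenpk and -0.11 for Top2a to -0.003 for Kif23 and 0.01 for Kif2c, leaving aside Pttg1, whose level separated over the 79. The median over all 47 was -0.07, against 0.13 over all genes, and 45 were below 0. Without W5000 to W5005 the median turned to 0.05 over 68 libraries, against 0.21 over all genes. No member passed, beside 1.13% of all genes positive and 0% negative, and none in ranks, beside 0.834% and 0%. Also none had an unadjusted p under 0.05, beside 11.5% of genes. With median-of-ratios scaling 25 members were negative, beside 3.95% of genes. Over the 7 libraries, r ran from -0.35 for Mybl2, -0.32 for Spc25 and -0.18 for Espl1 to 0.03 for Smc2, 0.03 for Plk1 and 0.06 for Cdk1 (adjusted p = 1 by permutation for all), beside 0% of genes in either direction. The median was -0.03, and -0.26 over the 5 left without W5000 to W5005, given with no test since 5 libraries are too few for one.

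Tgm4 gave negative values for almost every member. Over the 36 libraries the median r was -0.45, against -0.02 over all genes, and 46 of 47 members were below 0. The lowest were Bub1 (r = -0.61, adjusted p = 0.0722 by permutation), Ncapg (-0.56) and Cenpe (-0.55), and the highest Spc24 (-0.20), Ccnb2 (-0.12) and Pttg1 (0.04). None passed, beside 0.00684% of genes negative and 0.103% positive, although 38 had an unadjusted p under 0.05, beside 17.3% of genes, and in ranks 1 member passed, beside 0.616%. W4517 and W4419, the 2 libraries farthest from the median of Tgm4 (2469 and 195 TPM), had geometric means of 22.1 and 13.96 TPM. Without them the median r was -0.06, so the median relation rests on these 2 libraries. Single members then ran from -0.41 for Cenpe to 0.28 for Aurka. Cenpf, the member that passed in ranks, stood at -0.38.

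Over the 79 libraries the median r with Tgm4 was -0.22, against -0.11 over all genes. Passing members numbered 8, all negative: Spc25 (r = -0.40, adjusted p = 0.00201 by permutation), Ncaph (-0.39), Zwilch (-0.31), Cenpa (-0.28), Bub1, Kif2c, Smc2 and Nuf2, beside 26.6% of all genes negative, and 0 were positive beside 12.2%. Closest to 0 were Mybl2 (-0.11) and Cdc20 (-0.15), with the r of Pttg1 not given since its level separated over the 79. Without W5000 to W5005, whose mitosis levels were low at Tgm4 levels of 10.46 to 7892 TPM, 43 members were negative with a median r of -0.32, beside 33.1% of genes. Without W1154 and W5003, farthest in Tgm4, 44 were, beside 55.6% of genes. Of the other mitosis genes 25 of 90 were negative and 2 positive over the 79, and of the DNA replication genes 14 of 28 were negative. The direction with Tgm4 was not that of all luminal genes. Of the 10 on the luminal list, 6 had a median r with the members above 0 over the 79, with 3 above 0.3. Krt8 stood highest at 0.77, and only Sbp, at -0.33, lay below -0.3. Without W5000 to W5005, 4 were above 0, 3 above 0.3 and 1, Tgm4, below -0.3.

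Markers of other cells gave values to set beside these. Epcam, a surface protein of epithelial cells, was positively related to all 47 members over the 79 libraries, while 0 were negative beside 0.916% of genes, with r from 0.56 for Mybl2 to 0.80 for Cenpk and a median of 0.71 (Pttg1 is counted although its level separated there). Most genes were too, 75.7% of those tested with a median r of 0.52. After rescaling TPM without the 20 largest genes all 47 members remained positive (median r 0.61), while 37.3% of genes did (median r 0.15). Ptprc, the leukocyte antigen CD45, was also positively related to all 47 (beside 82.8% of genes positive and 2.17% negative), and after rescaling to 47 beside 47.98%. The median r with Ptprc was 0.57, against 0.52 over all genes. Without W5000 to W5005 it was 0.485, below the 0.515 over all genes. After rescaling it was 0.46 against 0.23, and with median-of-ratios scaling 0.40 against -0.005. The smooth muscle gene Acta2 was positive for 45 members, beside 79.4% of genes, with 0.581% negative. The collagen gene Col1a1 was positive for 36, beside 52.8%, with 3.48% negative. Median r was 0.30 with Acta2, against 0.42 over all genes, and 0.29 with Col1a1, against 0.26. These relations did not outlast rescaling, after which 0 members passed with either, beside 18.5% and 25.5% of genes positive.

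Over the 36 libraries the direction with these markers was mostly the other one. The median r of members was -0.31 with Epcam, -0.18 with Ptprc, -0.10 with Col1a1 and -0.36 with Acta2. Over all genes the medians were 0.21, 0.21, 0.28 and 0.20. With Epcam, 20 members were negative, beside 18.2% of genes, and 2 positive, Ccnb2 and Mad2l1, beside 38.5%. The lowest were Ncapd2 (r = -0.71, adjusted p = 7.65e-05 by permutation), Cenpf (-0.69) and Mki67 (-0.67). By role, 6 of the 8 kinetochore genes and 4 of the 6 condensin and chromosome genes were among the negative, and 0 of the 3 mitotic kinases or the 4 passenger complex genes. After rescaling 40 members were negative, beside 30.4% of genes. Acta2 was negative for 19 members, beside 9.99% of genes, and positive for 0, beside 32.9%. Smc4 was lowest (r = -0.63). Leaving out W4419 and W1103, the farthest in Acta2, left 9, beside 8.37%. Ptprc was negative for 7 members, beside 11.2% of genes, and positive for 0, beside 35.1%. Col1a1 was negative for 7, beside 13.8%, and positive for 2, beside 44.7%. Both counts of negative members lay near the share of all genes. Difference of direction between the 36 and the 79 libraries was not tested.

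**Figure D5:**
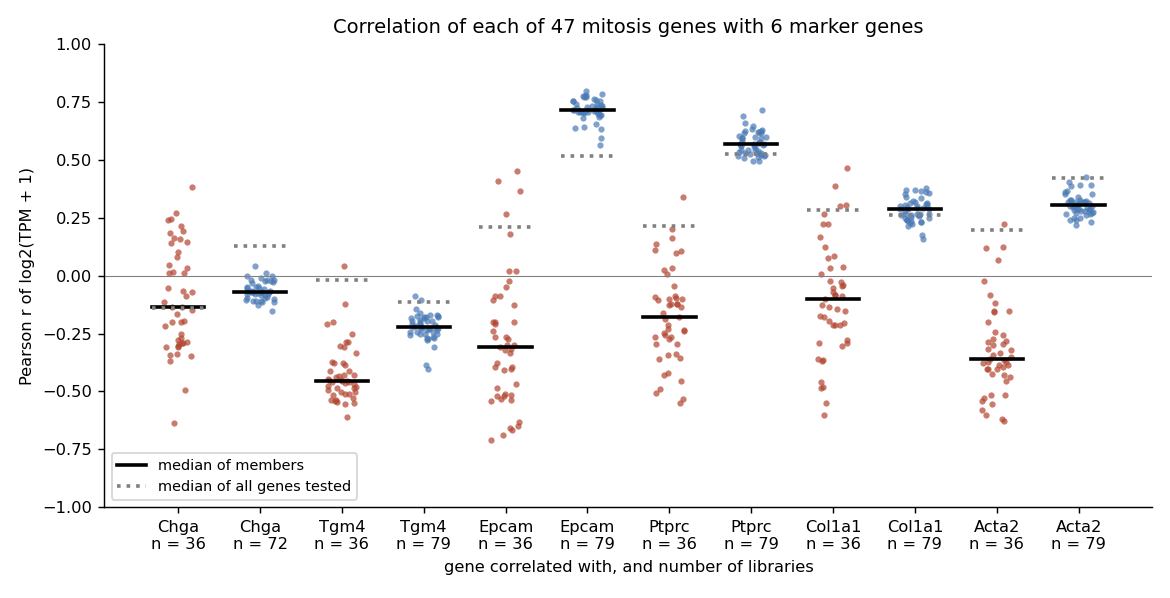
Pearson r of log2(TPM + 1) of each of the 47 members (points) with 6 marker genes, within the 36 libraries (red) and within the 79, or the 72 low in Chga (blue). Black bars are medians of the members and dotted grey bars medians of all genes tested; members lie above the grey bar for Epcam over 79 libraries (0.71 against 0.52) and below it for Tgm4 over 36 (-0.45 against -0.02).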

How the data were processed

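Prostate RNA was measured once per mouse label. The authors depleted ribosomal RNA, built TruSeq libraries, trimmed the reads, aligned them with Bowtie2 2.2.5 to transcripts carrying either C57BL/6 or WSB alleles, and estimated levels with RSEM 1.2.20, with CASAVA 1.8.2 also named in the submitters' processing notes, on GRCm38. The values the authors deposited are TPM. This unit sums to a constant in every library and holds no sequencing depth, so the counting error behind each value is unknown. The libraries carry different mouse labels in 1 group, and whether W78022 and W7822 come from separate mice is not known. The text of the study uses fewer libraries without naming them, so all were kept.

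Genes with a mean TPM of at least 1 were tested on log2(TPM + 1), with a pseudocount of 1. Of the table's genes, 45136 had a symbol and a position in GENCODE M21. BLAST+ 2.17.0 was used to find copies of members' transcripts. A match had to cover at least 80% of the shorter transcript and 200 bases, with at least 95% identity. Parts of libraries, correlations and their permutations were computed with numpy 2.4.6, pandas 2.3.3 and numba 0.67.0 under Python 3.11.15, figures with matplotlib 3.10.9, and the scripts were tested on simulated data. With 7 libraries all orders were enumerated. Correlations were computed within parts, and again after dropping the 2 libraries whose marker level was most distant from its median.

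The members, marker lists and tests were chosen with earlier results of these data known. All members are accounted for. Full values are given for genes named by role, the 5 highest and 5 lowest medians, the 3 highest and 3 lowest r with Chga and Tgm4, and members that did not separate. As alternatives, a smaller pseudocount, median-of-ratios scaling, TPM scaled without 20 genes, ranks, no filter on low values, other parts and thresholds, and leaving out W78022, were tried. Leaving out W5000 to W5005 or the farthest libraries, and all alternatives for Epcam, Ptprc, Col1a1 and Acta2, were added after the data were seen. Genotypes and tumor traits were not used here.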

Additional observations from a re-analysis of the deposited data

How the results depend on the processing

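The parts held 36 libraries in the smaller one with a pseudocount of 0.1, rescaled TPM, or without W78022 or W5000 to W5005, 37 with median-of-ratios scaling and 38 when drawn without mitosis and replication genes (the other parts below), and each time these included the 36. Between 45 and 46 members separated. Median r among members ranged from 0.54 to 0.70 over the 36 and from 0.93 to 0.95 over the 79. At 10 TPM in place of 1 TPM, 7 members reached the level in 50% of libraries in place of 46. Counts of members related to a marker were less stable, and the share of all genes called in the same direction, given in brackets, moved too. With Chga over 36 libraries, the 0 positive members (9.77%) became 2 (14.5%) with median-of-ratios scaling, 7 (20.7%) with rescaled TPM and 27 (18.9%) with the other parts, and the 2 negative (23.9%) became 1 (15.6%) with rescaled TPM and 0 in ranks (0.109%), with the other parts (19.9%) or without the 2 farthest libraries (2.68%). Over 72 libraries the 0 negative (0%) became 25 (3.95%) with median-of-ratios scaling and 2 (0.321%) with rescaled TPM. With Tgm4 over 36 libraries 1 was negative in ranks (0.616%). Over 79 the 8 negative (26.6%) became 4 (21.5%) with a pseudocount of 0.1, 19 (28.6%) with median-of-ratios scaling, 17 (25.7%) with rescaled TPM, 30 (43.3%) in ranks, 3 (19.2%) over all genes above 0, 13 (40.6%) with the other parts, 43 (33.1%) without W5000 to W5005 and 44 (55.6%) without the farthest 2.

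With Epcam over 36 libraries, the 2 positive (38.5%) became 1 (34.9%) with median-of-ratios scaling and 0 with rescaled TPM (25.4%), the other parts (34.3%) or without the farthest 2 (30.1%), and the 20 negative (18.2%) became 40 (30.4%) with rescaled TPM. With Ptprc over 36, the 7 negative (11.2%) became 20 (18.5%) with median-of-ratios scaling, 12 (6.81%) with rescaled TPM and 22 (9.64%) with the other parts. With Col1a1 over 36, the 2 positive (44.7%) became 1 with a pseudocount of 0.1 (43.1%) or all genes above 0 (19.5%), and 0 with either scaling (33.8% and 28.5%), in ranks (41.6%) or with the other parts (40.6%), and the 7 negative (13.8%) became 19 (23.3%) with median-of-ratios scaling, 23 (20.1%) with rescaled TPM and 14 (12.1%) with the other parts. Over 79 the 36 positive (52.8%) became 0 with either scaling (17.01% and 25.5%), 31 (53.9%) with a pseudocount of 0.1 and 26 (32.4%) over all genes above 0. They rose to 47 (67.5%) in ranks, 46 (57.1%) with the other parts, 45 (58.7%) without W5000 to W5005 and 42 (49.5%) without the farthest 2. With Acta2 over 36, the 19 negative (9.99%) became 35 with either scaling (17.2% and 7.78%), 12 in ranks (8.04%) or over all genes above 0 (5.07%), 43 (13.6%) with the other parts and 9 (8.37%) without the farthest 2. Over 79 the 45 positive (79.4%) became 0 with either scaling (9.92% and 18.5%) and 27 (77.5%) without W5000 to W5005. They became 40 (32.7%) over all genes above 0, 47 (77.5%) in ranks, and 46 with the other parts (75.7%) or without the farthest 2 (66.9%). The cause of these shifts was not tested.

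Scaling moved the split of calls over all genes too. Rescaled TPM gave 20.7% positive and 15.6% negative with Chga over 36 libraries in place of 9.77% and 23.9%, and median-of-ratios scaling gave 31.1% and 21.4% with Epcam over 79 in place of 75.7% and 0.916%. Leaving out W78022 left all counts as they were. No paired analysis was possible because the labels hold a single condition. TPM keeps no depth, so values near 0, such as those of Cdc25c, Mybl2 and Espl1 in the lowest libraries, have an unknown counting error.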
